A study of Mus musculus with 3 samples.

Results

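The genes described here are 40 genes that dividing cells transcribe in order to copy and then separate their chromosomes, 18 of DNA replication and 22 of mitosis. They were taken from a fixed list of symbols, and all 40 were found among the 32285 genes of the deposited spot counts. The study placed cryosections of mouse distal colon, frozen unfixed in embedding compound, on Visium slides, on which barcoded spots of a hexagonal array capture RNA from small regions that can each hold several cells. There were 3 groups of 1 library each. The first was Hgfac KO colon on day 2 after wounding, the second Hgfac WT colon on day 2 after wounding, and the last unwounded Hgfac WT colon. Hgfac encodes a secreted serine protease that activates hepatocyte growth factor. The labels give no strain, age or sex and do not say how the colon was wounded or how the Hgfac allele was made. Each library was labelled as 3 biological replicates, and each slide area held 3 separate pieces of tissue, but nothing ties a piece to an animal. The groups therefore have no tested replicates: no p-value is given, pieces are given as a range, and intervals are exact 95% intervals that cover counting error only. Because each slide area held 1 group, group and area cannot be told apart.

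In a replicating cell the MCM helicase is loaded on origins by Cdc6 and Cdt1 and opens the DNA, Pcna holds the polymerases on the template, and Rrm1, Rrm2, Tyms and Dut keep the supply of nucleotides balanced. Later in the cycle Cdk1 with its cyclins starts mitosis, the kinetochore and spindle proteins attach and move the chromosomes, and Cdc20 and Ube2c drive the destruction of cyclins that ends it. In the colon these genes are known from the lower crypt, where stem and progenitor cells divide before their daughters move to the surface, and after injury epithelial, stromal and immune cells can all divide. A spot that holds fewer dividing cells and a spot whose dividing cells hold less RNA of a gene cannot be told apart in these data.

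The replication and mitosis genes differ in their promoters, and 3 of each are shown. The 3 replication promoters carry E2F letters and the 3 mitosis promoters CHR letters, both defined below. That of Cdk1 carries both. RefSeq promoters (GRCm38.p6, 250 bases before to 50 after the start) were matched for 33 of the 40 genes, 16 of replication and 17 of mitosis. Mcm5 lies on the plus strand (chr8:75109349-75109508), Mcm6 on the minus strand (chr1:128359706-128359865), Cdc6 on the plus strand (chr11:98907991-98908150), Cdk1 on the minus strand (chr10:69352913-69353072), Ube2c on the plus strand (chr2:164769769-164769928) and Cdc20 on the minus strand (chr4:118437344-118437503). The 160 bases before each start are printed 5′ to 3′ on the strand of the gene, and capitals mark matches on either strand to E2F letters (TTTCCCGC, TTTGGCGC, TTTGCCGC or TTTCGCGC), to the cell cycle homology region CHR (TTTGAA or TTCGAA) or to CCAAT. Matches on opposite strands can overlap and then share 1 run of capitals.
Mcm5: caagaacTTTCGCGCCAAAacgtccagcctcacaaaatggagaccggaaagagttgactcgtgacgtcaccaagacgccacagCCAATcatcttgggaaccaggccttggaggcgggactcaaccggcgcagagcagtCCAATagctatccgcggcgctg
Mcm6: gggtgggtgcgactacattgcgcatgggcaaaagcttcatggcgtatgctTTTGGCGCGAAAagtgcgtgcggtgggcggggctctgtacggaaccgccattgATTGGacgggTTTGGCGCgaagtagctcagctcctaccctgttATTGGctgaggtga
Cdc6: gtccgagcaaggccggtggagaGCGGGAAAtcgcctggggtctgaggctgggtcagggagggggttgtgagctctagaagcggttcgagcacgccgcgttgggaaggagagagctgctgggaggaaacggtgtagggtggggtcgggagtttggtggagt
Cdk1: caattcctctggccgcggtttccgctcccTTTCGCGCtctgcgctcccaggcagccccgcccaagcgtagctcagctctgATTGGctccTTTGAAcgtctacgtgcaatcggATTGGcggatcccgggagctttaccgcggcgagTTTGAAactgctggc
Ube2c: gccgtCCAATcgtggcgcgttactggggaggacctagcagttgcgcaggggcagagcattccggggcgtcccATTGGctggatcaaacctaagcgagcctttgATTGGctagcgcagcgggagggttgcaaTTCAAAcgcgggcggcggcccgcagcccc
Cdc20: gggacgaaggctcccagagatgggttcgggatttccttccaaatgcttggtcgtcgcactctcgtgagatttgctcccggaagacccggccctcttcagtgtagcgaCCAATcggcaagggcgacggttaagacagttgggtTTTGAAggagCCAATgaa

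E2F letters were present in 8 of the 16 replication promoters, those of Mcm3, Mcm5, Mcm6, Mcm7, Cdc6, Cdt1, Lig1 and Uhrf1, and in 1 of the 17 mitosis promoters, that of Cdk1. Over all 27025 genes of the RefSeq table, 2.6% held these letters. CHR letters were present in 14 of 17 mitosis promoters and 3 of 16 replication promoters, against 21.7% of all promoters, and the mitosis promoters without them were those of Ccnb1, Birc5 and Cenpe. CCAAT stood in 16 of 17 mitosis and 10 of 16 replication promoters, against 41.1% of all promoters. CHR and CCAAT stood together in 14 of 17 mitosis and 2 of 16 replication promoters, against 8.61% of all. A match describes the letters of the window and does not show that a factor binds there.

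The KO wound, WT wound and WT intact libraries held 572, 640 and 502 spots under tissue, with medians of 13168, 14638 and 11416 unique molecules (UMIs) per spot. Levels are given as CPM, counts scaled to a total of 1e+06 UMIs of the library, piece or region named, which are not scaled to gene length, so levels of different genes are not compared. A count of 3 UMIs, the limit that a count of 0 allows, is 0.336, 0.265 and 0.367 CPM in the 3 libraries. All 40 genes had at least 50 UMIs over the libraries of each comparison, the least needed for a gene to be counted in it. Hgfac itself had 49.0 CPM in the KO wound library, 94.8 CPM in the WT wound library and 76.6 CPM in the WT intact library, but Visium reads lie near the 3′ end of a transcript and the altered part of the gene is not given in the sources used here, so these levels do not check the labels. Leukocyte markers (9 of 9 detected in each library) summed to 1680 CPM in KO wound tissue (1159 to 2202 by piece), 1218 CPM in WT wound tissue (915 to 1657) and 495 CPM in WT intact tissue (458 to 579). B cell follicle markers summed to 28.6 CPM in KO wound, 75.6 CPM in WT wound and 14.9 CPM in WT intact tissue, with 213 CPM in piece 3 of the WT wound, and Pax5 was at 0 in WT intact tissue. Their part in the levels below was not tested except where a value is given. Both comparisons below use the WT wound library, so a high or low WT wound value moves both.

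**Figure D1:**
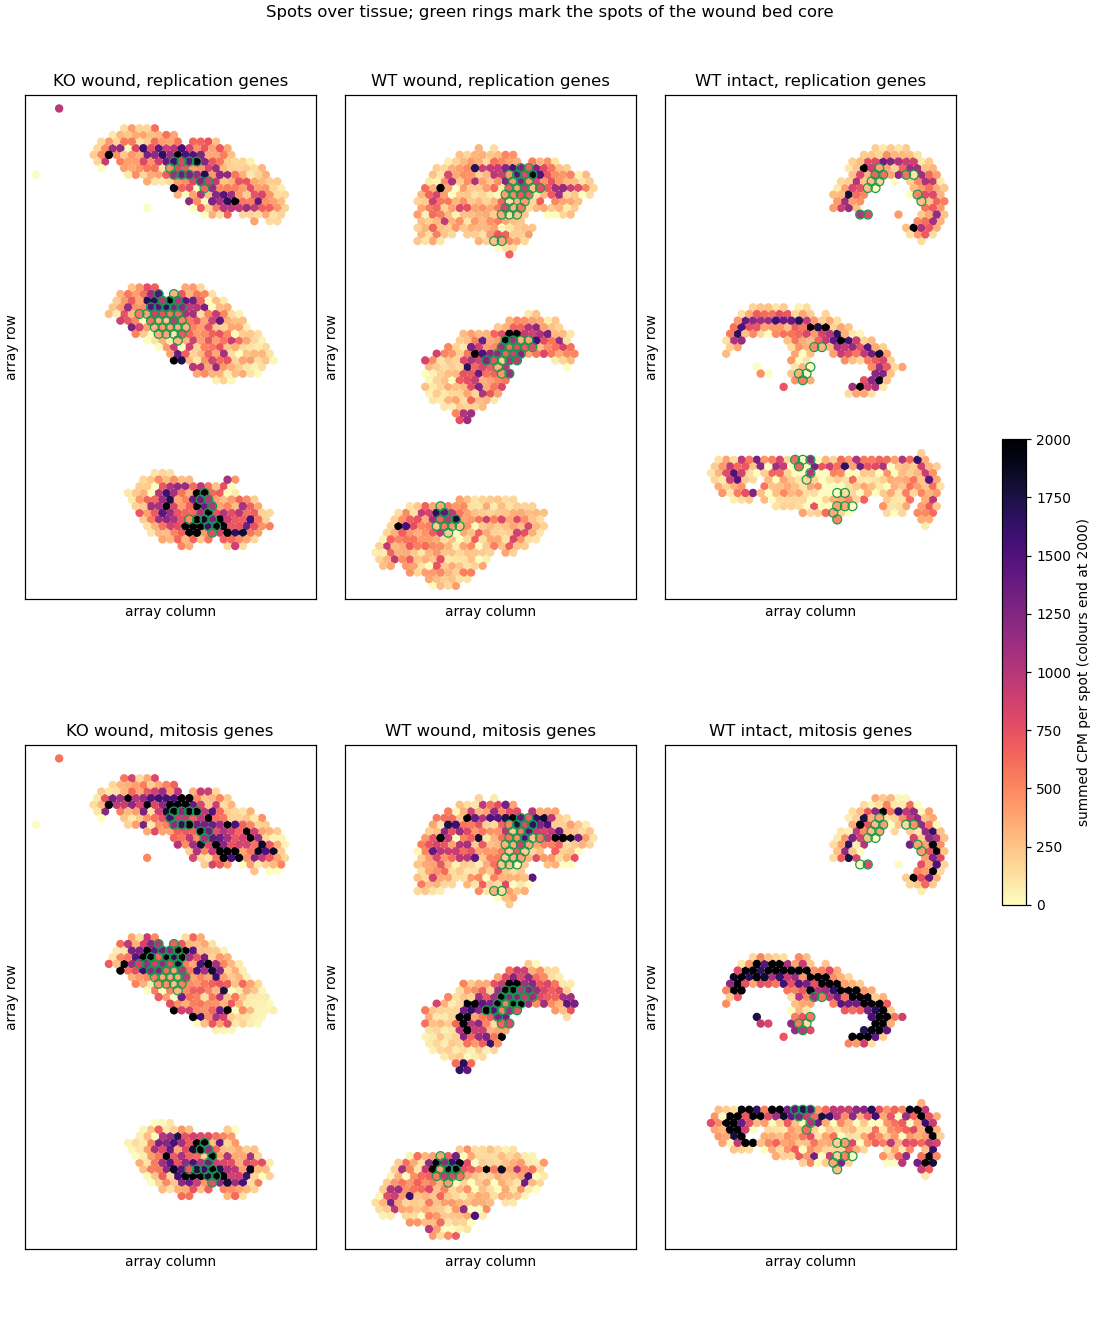
Maps of the 3 libraries, KO wound, WT wound and WT intact from left to right, drawn to 1 scale in array steps, with replication counts in the upper and mitosis counts in the lower panels (CPM of each spot) and spots of the wound bed core ringed in green. Pieces 1 to 3 run from top to bottom. In WT intact tissue the high mitosis spots lie in a band along the tissue, most densely in piece 2, while in both wound libraries high spots also lie at the wound bed core.

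Summed over the 18 genes, replication transcripts made up 569 CPM of KO wound tissue, 435 CPM of WT wound tissue and 495 CPM of WT intact tissue. By piece these sums were 560.2, 439 and 710.1 CPM in the KO wound, 424, 502 and 365 CPM in the WT wound and 473, 608 and 384 CPM in WT intact tissue. The pieces of the 3 groups overlapped. The 22 mitosis genes summed to 696 CPM in the KO wound, 573 CPM in the WT wound and 1020.3 CPM in WT intact tissue. By piece the mitosis sums were 798, 551 and 707 CPM in the KO wound, 585, 672 and 429 CPM in the WT wound and 537, 1524 and 817 CPM in WT intact tissue. Piece 2 of WT intact tissue stood above every other piece, and piece 1 lay within the range of the wound pieces. That piece 2 was the highest of all 9 pieces for 22 of 22 mitosis genes and for 4 of 18 replication genes. Crypt markers summed to 2003 CPM in it, against 1402 and 1409 CPM in the other WT intact pieces, and 34 of its 148 spots were in the crypt-rich class defined below, against 13 of 116 and 26 of 233. Among replication genes, piece 3 of the KO wound was the highest of the 9 pieces for 11 of 18.

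The balance between the sets also differed between libraries. There were 1.22 mitosis UMIs per replication UMI in the KO wound (1.42, 1.26 and 0.996 by piece), 1.31 in the WT wound (1.38, 1.34 and 1.17) and 2.06 in WT intact tissue (1.14, 2.51 and 2.13). Pieces 2 and 3 of the WT intact tissue lay above all 6 wound pieces, and its piece 1 lay below 5 of them. Without Hmgb2, a chromatin protein that is also made outside mitosis, the ratios were 1.02, 1.08 and 1.65. Hmgb2 and Stmn1 had the most UMIs of the mitosis genes and weigh heavily in the mitosis sums. They held 1061 and 1227 of 6220 mitosis UMIs in the KO wound and 1170 and 1434 of 6475 in the WT wound. In WT intact tissue they held 1654 and 1771 of 8346. The balance without Stmn1 was not computed.

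**Figure D2:**
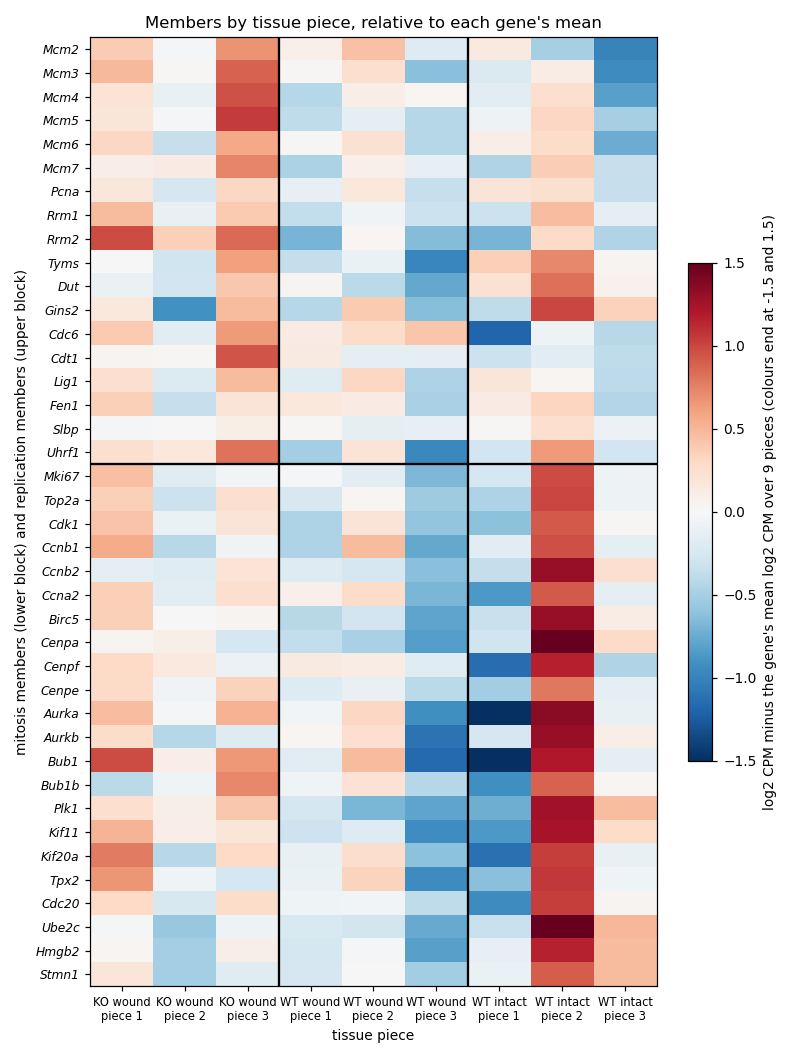
Level of each of the 40 genes in each of the 9 tissue pieces, as log2 CPM minus the gene's mean log2 CPM over the 9 pieces, with KO wound pieces on the left, then WT wound and WT intact pieces. Replication genes are above and mitosis genes below; the WT intact piece 2 column is the highest for 22 of 22 mitosis genes.

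In WT wound tissue against WT intact tissue, mitosis transcripts were lower at 0.561 times [0.543 to 0.580] and replication transcripts at 0.880 times [0.844 to 0.918]. The median ratio was 0.668 over the 22 mitosis genes and 0.922 over the 18 replication genes, against 1.06 over all 12402 genes tested. No mitosis gene was above 1, and 18 of 22 had an interval wholly below 1. Of the mitosis genes 4 were at or below 0.5 and 11 at or below 0.667, against 3.08% and 7.03% of all genes. Of the replication genes none was at or below 0.5, 3 were at or below 0.667 and 1 was at or above 1.5, a bound that 9.18% of all genes reached. These library sums rest on WT intact piece 2. Without it the mitosis sum was 0.823 times WT intact, 12 of 22 mitosis genes were above 1, none was at or below 0.5 and 2 were at or below 0.667. The replication sum without it was 1.03 times, with 12 of 18 genes above 1. Without WT intact piece 1, by contrast, 7 mitosis genes were at or below 0.5 and 20 at or below 0.667.

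Cenpa, the histone H3 variant that marks centromeres, was the mitosis gene with the lowest ratio. It had 16.9, 15.6 and 12.3 CPM in the WT wound pieces, against 17.8, 77.8 and 26.6 CPM in the WT intact pieces, a ratio of 0.34 [0.283 to 0.411]. It was the 1 mitosis gene whose 3 WT wound pieces all lay below the 3 WT intact pieces, which 6.89% of all genes did, although the gap to WT intact piece 1 was narrow. Ube2c, the E2 enzyme that works with the anaphase-promoting complex, had 45.2, 43.7 and 31.3 CPM in the WT wound and 42.0, 181 and 74.5 CPM in WT intact tissue, a ratio of 0.38 [0.337 to 0.423]. Its WT intact piece 1 lay inside the WT wound range. Plk1, a kinase of mitotic entry and spindle assembly, had 11.0, 8.14 and 7.59 CPM in the WT wound, against 7.94, 31.5 and 18.1 CPM in WT intact tissue, a ratio of 0.44 [0.338 to 0.562]. Birc5, the survivin subunit of the chromosomal passenger complex, had 29.1, 31.8 and 22.5 CPM in the WT wound, against 30.8, 96.2 and 41.8 CPM in WT intact tissue, a ratio of 0.47 [0.406 to 0.541]. Without WT intact piece 2 these 4 genes kept ratios below 1, at 0.67, 0.67, 0.66 and 0.76, each with an interval below 1.

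The other mitosis genes differed in how far they moved once that piece was left out, and 12 of the 22 were then above 1. Mki67, which coats mitotic chromosomes and is a common marker of proliferation, had 38.4, 35.0 and 24.7 CPM in the WT wound and 32.7, 77.4 and 37.2 CPM in WT intact tissue. Its ratio was 0.64 [0.558 to 0.741] over whole libraries and 0.94 [0.786 to 1.13] without WT intact piece 2. Cdk1, the kinase that starts mitosis, had a ratio of 0.68 [0.586 to 0.790] and 1.0 [0.826 to 1.22] without that piece, and Top2a, which untangles sister chromosomes, 0.67 [0.569 to 0.779] and 1.02 [0.829 to 1.26]. Among the cyclins, Ccnb2 was at 0.50 [0.417 to 0.606], Ccnb1 at 0.70 and Ccna2, which acts in replication and in mitosis, at 0.82. Cenpf, a kinetochore protein, had the ratio nearest to 1 at 0.83 [0.610 to 1.12] and was at 1.69 [1.08 to 2.74] without piece 2. Stmn1, which destabilises microtubules, and Hmgb2 were at 0.59 [0.546 to 0.628] and 0.51 [0.474 to 0.552], and were also below 1 without that piece, at 0.72 and 0.69. The motors Kif11 and Kif20a were at 0.51 and 0.76, the spindle kinases Aurka and Aurkb at 0.67 and 0.59, the checkpoint kinases Bub1 and Bub1b at 0.74 and 0.80, the spindle factor Tpx2 at 0.71, Cdc20 at 0.70 and the motor Cenpe at 0.73, all with overlapping pieces. Without WT intact piece 2 most of these stood on the other side of 1, with Aurka at 1.40 [0.935 to 2.16], Kif20a at 1.31, Bub1 at 1.52 [0.762 to 3.30], Bub1b at 1.21, Tpx2 at 1.14, Cdc20 at 1.12 [0.890 to 1.43] and Cenpe at 1.06. Ccna2 was then at 1.31 [1.03 to 1.66], Ccnb1 at 1.03, Aurkb at 0.96, Kif11 at 0.81 and Ccnb2 at 0.78.

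Replication genes were spread on both sides of 1 between these libraries, 7 above and 11 below. Tyms, which makes thymidylate, had 24.9, 29.6 and 16.1 CPM in the WT wound, against 40.6, 52.5 and 32.6 CPM in WT intact tissue, a ratio of 0.57 [0.484 to 0.669]. Dut, which removes dUTP, had 30.0, 22.0 and 17.1 CPM in the WT wound, against 34.1, 51.8 and 30.5 CPM in WT intact tissue, a ratio of 0.59 [0.502 to 0.698]. For both nucleotide enzymes the WT wound pieces lay below all WT intact pieces, by a small gap for Dut. Gins2, part of the GINS complex of the helicase, was at 0.64 [0.504 to 0.816] with overlapping pieces.

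The origin loading factors Cdc6 and Cdt1 had library ratios above 1. Cdc6 had 4.64, 5.18 and 5.70 CPM in the WT wound, against 1.87, 4.06 and 3.19 CPM in WT intact tissue, a ratio of 1.61 [1.0 to 2.67] that rests on 58 and 26 UMIs. Cdt1 had 17.3, 14.3 and 14.2 CPM in the WT wound, against 12.6, 14.1 and 12.1 CPM in WT intact tissue, a ratio of 1.19 [0.928 to 1.53]. In crypt-rich epithelium, defined below, Cdt1 was at 0.62 [0.402 to 0.963]. Over whole libraries these were the 2 of 18 replication genes whose WT wound pieces all lay above the WT intact pieces, beside 15.6% of all genes. Neither library interval lay wholly above 1. Of the MCM helicase subunits, Mcm2 was at 1.49 [1.19 to 1.88], Mcm3 at 1.18 [0.941 to 1.48], Mcm4 at 1.05, Mcm6 at 1.03, Mcm7 at 0.92 and Mcm5 at 0.83 [0.699 to 0.989], all with overlapping pieces. Pcna was at 0.92 [0.840 to 1.01], the ligase Lig1 at 1.01 [0.818 to 1.24] and the flap nuclease Fen1 at 0.97 [0.742 to 1.26]. The reductase subunits Rrm1 and Rrm2 were at 0.80 and 0.86, the histone mRNA binding protein Slbp at 0.90 and Uhrf1, which guides DNA methylation to newly copied DNA, at 0.73 [0.567 to 0.938].

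In KO wound tissue against WT wound tissue, both sets were higher, replication transcripts at 1.31 times [1.26 to 1.36] and mitosis transcripts at 1.22 times [1.17 to 1.26]. All 40 genes had a ratio above 1, as 58.9% of the 12463 genes tested did, and the interval lay above 1 for 12 of 18 replication and 13 of 22 mitosis genes. The median ratio was 1.29 for replication and 1.26 for mitosis genes, against 1.03 over all genes. At or above 2 stood 1 gene, Rrm2, against 0.73% of all genes, and at or above 1.5 stood 3 replication and 4 mitosis genes, against 3.34%. In 3 replication and 6 mitosis genes all KO wound pieces lay above all WT wound pieces, against 5.79% of all genes. With 1 piece left out at a time, 16 to 18 of the 18 replication genes and 17 to 22 of the 22 mitosis genes were above 1. The number at or above 1.5 depended on single pieces. It was 1 replication gene without KO wound piece 3, 1 mitosis gene without KO wound piece 1, 8 replication and 9 mitosis genes without WT wound piece 2, and 2 replication and 1 mitosis gene without WT wound piece 3.

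**Figure D3:**
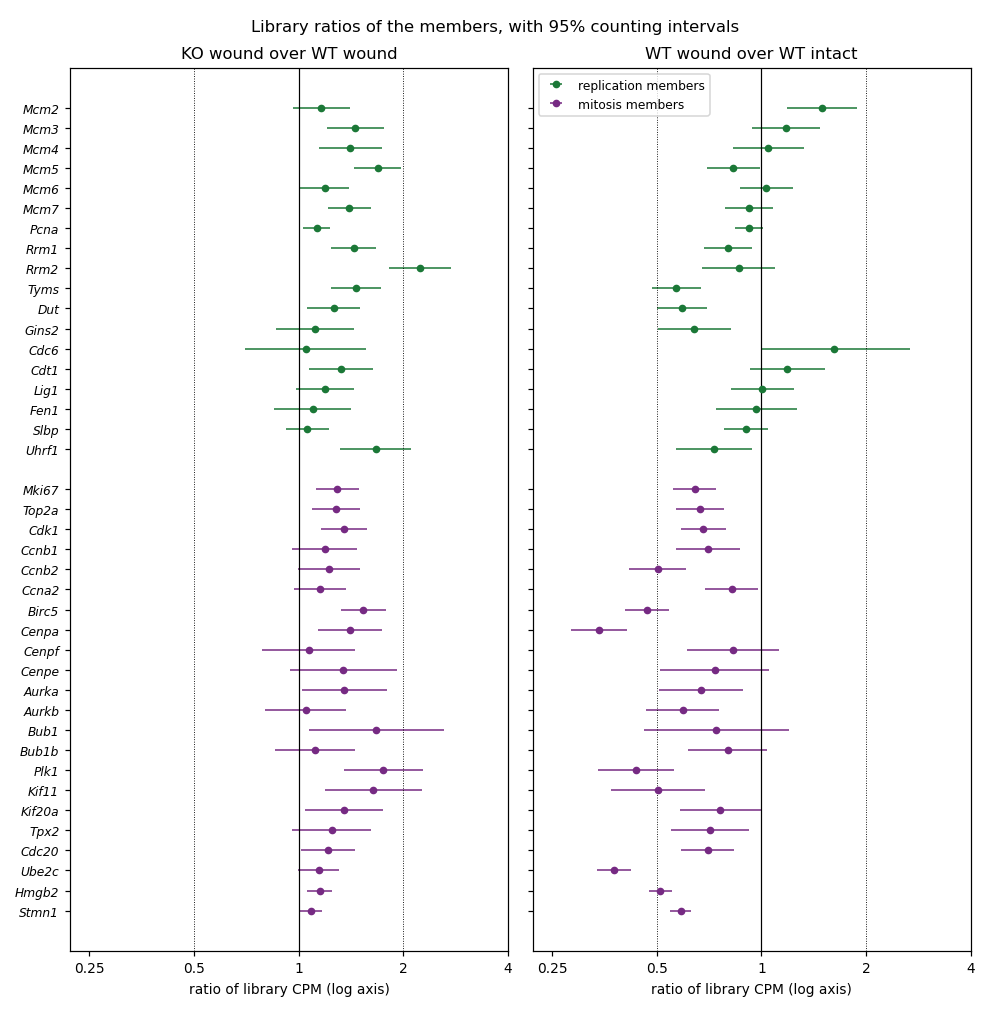
Ratio of each of the 40 genes on a log axis with its exact 95% counting interval, KO wound over WT wound in the left panel and WT wound over WT intact in the right. All 40 points lie above 1 on the left; on the right the 22 mitosis points lie below 1 and the replication points on both sides.

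Rrm2, the small subunit of ribonucleotide reductase, which makes deoxyribonucleotides, had the highest ratio of the 40. It had 34.2, 22.4 and 31.4 CPM in the KO wound pieces, against 10.7, 17.8 and 11.1 CPM in the WT wound pieces, a ratio of 2.23 [1.82 to 2.74]. All 3 KO wound pieces lay above all WT wound pieces, and also above the 10.7, 21.2 and 12.8 CPM of the WT intact pieces. Rrm1, the large subunit of the same enzyme, had 49.3, 33.0 and 46.6 CPM in the KO wound, against 27.6, 34.3 and 28.5 CPM in the WT wound, a ratio of 1.44 [1.24 to 1.67] with overlapping pieces. Tyms was at 1.46 [1.24 to 1.72] and Dut at 1.26 [1.06 to 1.5] between the wounds.

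Within the MCM helicase, Mcm5 had 35.3, 30.7 and 64.3 CPM in the KO wound, against 23.9, 28.4 and 23.1 CPM in the WT wound, a ratio of 1.69 [1.44 to 1.97]. Mcm7 had 38.1, 39.0 and 59.2 CPM in the KO wound, against 25.7, 37.5 and 32.9 CPM in the WT wound, a ratio of 1.40 [1.21 to 1.62]. The pieces of the 2 groups did not overlap for either subunit, but the lowest KO wound piece of Mcm7 was close to the highest WT wound piece. Mcm3 at 1.45 [1.2 to 1.76] and Mcm4 at 1.41 [1.14 to 1.73] had overlapping pieces, as had Mcm6 at 1.19 and Mcm2 at 1.16. Uhrf1 had 16.8, 15.9 and 25.2 CPM in the KO wound, against 10.0, 16.3 and 7.28 CPM in the WT wound, a ratio of 1.67 [1.32 to 2.11]. The loading factor Cdt1 was at 1.32 [1.07 to 1.64], while Cdc6 at 1.05 [0.700 to 1.56] and Slbp at 1.06 [0.917 to 1.22] were the replication genes nearest to 1. Pcna was at 1.13 [1.03 to 1.23], Gins2 at 1.11, Lig1 at 1.19 and Fen1 at 1.10, all with overlapping pieces. The 8 matched replication genes with E2F letters had a median ratio of 1.36 (1.05 to 1.69) and the 8 without them, Rrm2 among these, 1.21 (1.06 to 2.23). By CHR letters, the median was 1.16 for the 3 replication genes with them and 1.32 for the 13 without. For mitosis genes it was 1.29 for the 14 with CHR letters and 1.34 for the 3 without. These medians are given as a description.

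Among mitosis genes the kinase Plk1 had 15.7, 14.0 and 17.4 CPM in the KO wound, against 11.0, 8.14 and 7.59 CPM in the WT wound, a ratio of 1.75 [1.35 to 2.28]. Birc5 had 49.6, 38.6 and 39.9 CPM in the KO wound, against 29.1, 31.8 and 22.5 CPM in the WT wound, a ratio of 1.54 [1.32 to 1.79]. Kif11, the motor that pushes spindle poles apart, had 12.1, 9.09 and 9.62 CPM in the KO wound, against 6.84, 7.40 and 4.43 CPM in the WT wound, a ratio of 1.64 [1.19 to 2.26]. All 3 had KO wound pieces above all WT wound pieces, which also held for Cenpa at 1.41 [1.14 to 1.74], the cyclin Ccnb2 at 1.22 [0.993 to 1.5] and the kinetochore motor Cenpe at 1.34 [0.944 to 1.92]. Bub1, a kinase of the spindle checkpoint, was at 1.67 [1.07 to 2.61] on 50 and 38 UMIs, with overlapping pieces. Mki67 had 53.5, 34.5 and 38.1 CPM in the KO wound, against 38.4, 35.0 and 24.7 CPM in the WT wound, a ratio of 1.29 [1.12 to 1.49]. Cdk1 was at 1.35 [1.16 to 1.57], Top2a at 1.28 [1.09 to 1.51] and Cdc20, the activator of the anaphase-promoting complex, at 1.22 [1.02 to 1.45]. For these 4 genes the pieces overlapped while the interval lay above 1. The kinases of the spindle poles and of the passenger complex, Aurka and Aurkb, were at 1.35 [1.02 to 1.79] and 1.05 [0.803 to 1.37]. Ube2c was at 1.14 [0.998 to 1.31], Hmgb2 at 1.15, Ccna2 at 1.16, Ccnb1 at 1.19, Bub1b at 1.11, Tpx2 at 1.24 and Kif20a at 1.35, all with overlapping pieces. The mitosis genes nearest to 1 were Aurkb, Cenpf at 1.07 [0.785 to 1.45] and Stmn1 at 1.08 [1.0 to 1.17]. Leukocyte markers moved with this comparison, at 1.38 times the WT wound, as did the wound bed list at 2.51 times, while crypt markers were at 1.05 times. Muscle markers were at 0.81 times, so the libraries also differed in tissue makeup.

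Each spot was put in an epithelial, muscle or connective tissue layer by the marker list with the highest scaled share, and epithelial spots of each library were split into equal crypt-rich, intermediate and surface-rich classes by their crypt against surface markers. Muscle spots were 77 of 572 in the KO wound, 173 of 640 in the WT wound and 253 of 502 in WT intact tissue. Muscle markers were at 0.71 times in the WT wound against WT intact tissue. Library ratios therefore compare unlike mixtures of layers. In each library both sets were higher in crypt-rich than in surface-rich epithelium, in 3 of 3 pieces. Replication transcripts were at 4.22 times in the KO wound, 3.28 times in the WT wound and 5.90 times in WT intact tissue, and mitosis transcripts at 5.65, 5.28 and 11.8 times. At or above 2 stood 16 of 16 replication and 13 of 13 mitosis genes that reached 50 UMIs in the KO wound, against 25.1% of all genes. In the WT wound 15 of 16 and 14 of 14 did, against 26.3%, and in WT intact tissue 17 of 17 and 20 of 20, against 23.9%. The layers were cut from other genes, but a spot with more crypt holds more of every crypt transcript, so these counts describe where the genes lie.

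Which layer held the highest level differed between libraries. In the KO wound connective tissue spots were highest for 10 of 18 replication and 16 of 22 mitosis genes, and the crypt-rich epithelium for 8 and 6, against 23.5% and 29.3% of all genes with at least 50 UMIs in that library. In the WT wound connective tissue spots were highest for 9 and 8 and the crypt-rich epithelium for 9 and 14, against 24.6% and 32.3% of all genes. In WT intact tissue the crypt-rich epithelium was highest for 17 of 18 replication and 21 of 22 mitosis genes, against 24.8% of all genes, and 30.9% of all genes were highest in its connective tissue spots. Summed mitosis transcripts in connective tissue spots were at 1.07 times the crypt-rich level in the KO wound, 0.87 times in the WT wound and 0.47 times in WT intact tissue, which had 31 connective tissue spots, against 146 and 160 in the KO and WT wounds. Summed replication transcripts were at 0.98, 0.98 and 0.67 times.

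**Figure D4:**
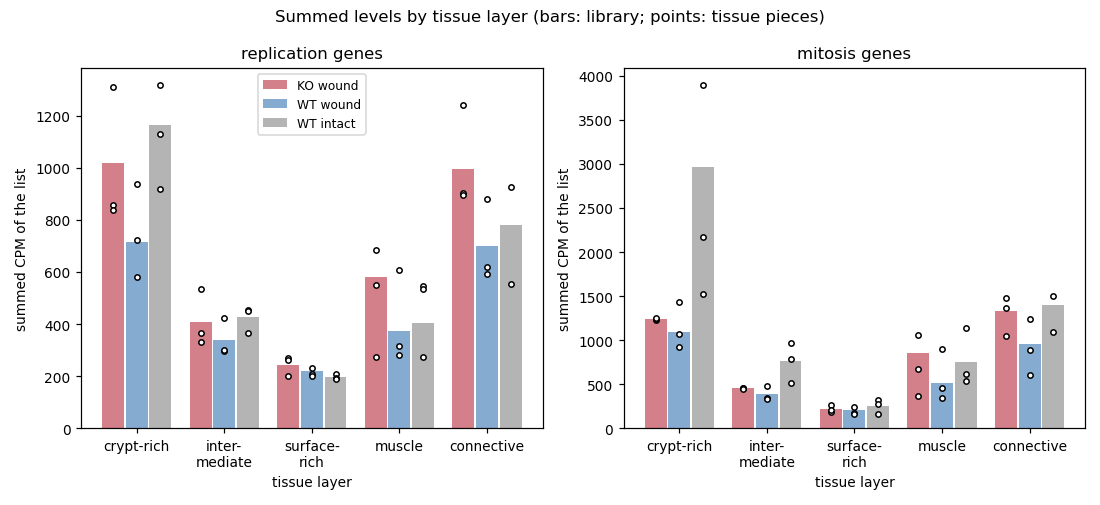
Summed replication (left) and mitosis (right) transcripts in CPM of each layer, for the KO wound, WT wound and WT intact libraries in that order within a layer, with a bar for the library and points for its pieces of at least 5 spots in the layer. Crypt-rich epithelium of WT intact tissue stands at 2965 CPM for mitosis, above both wounds, and connective tissue spots of the KO wound at 1331 CPM.

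Within crypt-rich epithelium, the distance between WT wound and WT intact tissue was wider than over whole libraries. Mitosis transcripts were at 1097 CPM in the WT wound (924 to 1431 by piece), against 2965 CPM in WT intact tissue (1527 to 3899), a ratio of 0.370 [0.350 to 0.391], and the pieces did not overlap. Replication transcripts were at 715 CPM (582 to 939), against 1165 CPM (919.9 to 1318), a ratio of 0.614 [0.570 to 0.661] with overlapping pieces. Of the genes tested there, 21 of 21 mitosis and 9 of 17 replication genes were at or below 0.667, against 8.35% of all genes, and 18 and 5 were at or below 0.5, against 3.35%. Without WT intact piece 2 the sums were at 0.567 times for mitosis and 0.718 times for replication, 7 of 14 mitosis and 6 of 16 replication genes were at or below 0.667, and 5 and 0 were at or below 0.5. Cenpa was at 20.7 CPM in the WT wound, against 144 CPM in WT intact tissue, a ratio of 0.14 [0.0974 to 0.206], and Ube2c was at 71.1 CPM, against 326 CPM, a ratio of 0.22. Kif11 and Plk1 followed at 0.22 and 0.24. These single-gene ratios are given with all pieces only, and WT intact piece 2 held 2931 of the 4252 mitosis UMIs of crypt-rich WT intact spots. There were 1.54 mitosis UMIs per replication UMI in crypt-rich epithelium of the WT wound (1.48 to 1.59 by piece), against 2.55 in that of WT intact tissue (1.35 to 2.96). The crypt-rich spots were not alike in makeup. Their crypt markers were at 0.799 times the WT intact level in the WT wound, their surface markers at 1.92 times, their leukocyte markers at 2.19 times and their connective tissue markers at 1.68 times. The part of this makeup in the difference was not tested.

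Between the wounds, replication transcripts in crypt-rich epithelium were at 1016 CPM in the KO wound (837 to 1309 by piece), against 715 CPM in the WT wound, a ratio of 1.42 [1.32 to 1.54], with 8 of 17 genes at or above 1.5, against 6.37% of all genes. Leaving out WT wound piece 1 gave a count of 3, and leaving out its piece 2 a count of 12. Mitosis transcripts there were at 1242 CPM (1226 to 1253), against 1097 CPM, a ratio of 1.13 [1.06 to 1.21], with 2 of 19 genes at or above 1.5. That mitosis ratio was 0.997 without WT wound piece 1 and 1.01 with class boundaries taken from all libraries together. The mitosis to replication balance of crypt-rich spots was 1.22 in the KO wound, against 1.54 in the WT wound, and piece 3 of the KO wound stood lowest at 0.957. Crypt markers of these spots were themselves at 1.31 times in the KO wound, leukocyte markers at 1.08 times and the wound bed list at 3.83 times. In surface-rich epithelium both sets differed less, at 1.11 times for replication and 1.06 times for mitosis.

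Outside the epithelium the connective tissue spots of the KO wound were higher in both sets. In connective tissue spots replication transcripts were at 993 CPM in the KO wound, against 699 CPM in the WT wound, a ratio of 1.42 with all KO wound pieces above all WT wound pieces. Mitosis transcripts were at 1331 CPM, against 951 CPM, a ratio of 1.40 with overlapping pieces. Of the genes tested there 8 of 17 replication and 9 of 20 mitosis genes were at or above 1.5, against 7.34% of all genes. These counts were 3 to 10 and 5 to 14 with 1 piece left out at a time, 3 without KO wound piece 3 and 5 without WT wound piece 1. In muscle spots the difference rested on KO wound piece 1, which held 45 of the 77 spots. Mitosis transcripts there were at 1063, 371 and 677 CPM in the KO wound pieces, against 454, 904 and 341 CPM in the WT wound pieces, which overlap, and the ratio was 1.67 with all pieces and 1.03 without KO wound piece 1. Replication transcripts in muscle spots were at 1.56 times with all pieces and 1.12 times without that piece. With all pieces 6 of 12 replication and 10 of 11 mitosis genes were at or above 1.5 there, against 8.27% of all genes, and without that piece 0 of 6 and 3 of 8. Rrm2 had 63.6 CPM in connective tissue spots of the KO wound, against 29.3 CPM in the WT wound, a ratio of 2.17, and in crypt-rich epithelium 35.9 CPM, against 14.8 CPM, a ratio of 2.43. With 1 piece left out these ratios of Rrm2 were 1.89 to 2.56 and 1.93 to 2.97. In muscle spots it had 49.1 CPM in the KO wound, against 11.2 CPM in the WT wound. That ratio of 4.37 [2.58 to 7.61] rests on 47 and 22 UMIs. Without KO wound piece 1 it was 0.72, on fewer KO wound UMIs and without an interval. In connective tissue spots the motors Kif20a and Kif11 were at 2.34 and 2.20, Birc5 at 2.01 and Rrm1 at 1.99. Leukocyte markers in these spots were at 1.84 times in connective tissue and 1.74 times in muscle, endothelial markers at 1.73 times in connective tissue, and connective tissue markers at 1.14 times. Whether leukocytes carry the difference was not tested.

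Distance from the wound was set by a wound bed core, the 10% of spots of a library with the highest share of 22 wound bed genes, kept where such a spot had such a neighbour, which gave 54 core spots in the KO wound and 59 in the WT wound. In both wounds the levels were highest at the core and lower with each ring outward. Replication transcripts in the KO wound were at 1079 CPM in the core, 887 CPM at 1 to 2 array steps, 571 CPM at 3 to 5 steps and 293 CPM at 6 or more steps. In the WT wound they were at 763, 656, 387 and 306 CPM in the same order. Mitosis transcripts were at 1411, 1127, 676 and 337 CPM in the KO wound and at 1095, 931, 493 and 365 CPM in the WT wound. WT intact tissue has no wound, and its 32 spots chosen by the same rule ran the other way, with 506 CPM of mitosis transcripts in them, against 1226 CPM at 6 or more steps. Of the 112 epithelial spots of its outermost ring 1 came from piece 1, whose mitosis level was the lowest, so ring and piece overlap there.

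The core stood over the outermost ring at 3.68 times [3.36 to 4.03] for replication and 4.19 times for mitosis in the KO wound, 2.5 times [2.28 to 2.73] and 3.00 times in the WT wound, and 0.665 and 0.413 times in WT intact tissue. The WT wound mitosis value was 1.97 times without its piece 2. At or above 2 stood 15 of 16 replication and 14 of 14 mitosis genes in the KO wound, against 20.2% of all genes. In the WT wound 13 of 17 and 15 of 15 did, against 16.6%, and in WT intact tissue 0 of 16 and 0 of 20, against 13.7%. Rrm2 had 102 CPM in the core, against 11.1 CPM in the outermost ring in the KO wound, a ratio of 9.19, and 50.4 CPM, against 4.80 CPM in the WT wound, a ratio of 10.5. In the KO wound Cdc20 had a ratio of 9.68. Kif11 was at 12.5 [5.67 to 30.3] there on 26 and 9 UMIs, below the 50 UMIs needed to be counted. Leukocyte markers followed the same order, at 4780, 2249, 1450.3 and 855 CPM in the KO wound and 3267, 1516, 1088 and 761 CPM in the WT wound, and the crypt list was at 1.80 and 1.22 times in the core. Rings also differ in layers, with 49 of 54 core spots of the KO wound and 57 of 59 of the WT wound in muscle or connective tissue. Within muscle and connective tissue spots alone, core over outermost ring was 1.95 times for replication and 1.67 times for mitosis in the KO wound, with 49 against 20 spots, 18 of the 20 from piece 1, and 2.32 and 2.08 times in the WT wound. Single pieces moved these mitosis values, to 3.73 times without KO wound piece 1, 4.01 times without WT wound piece 1 and 1.40 times without WT wound piece 2 or piece 3. The crypt list in these spots was at 0.84 times in the KO wound and 0.85 times in the WT wound.

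**Figure D5:**
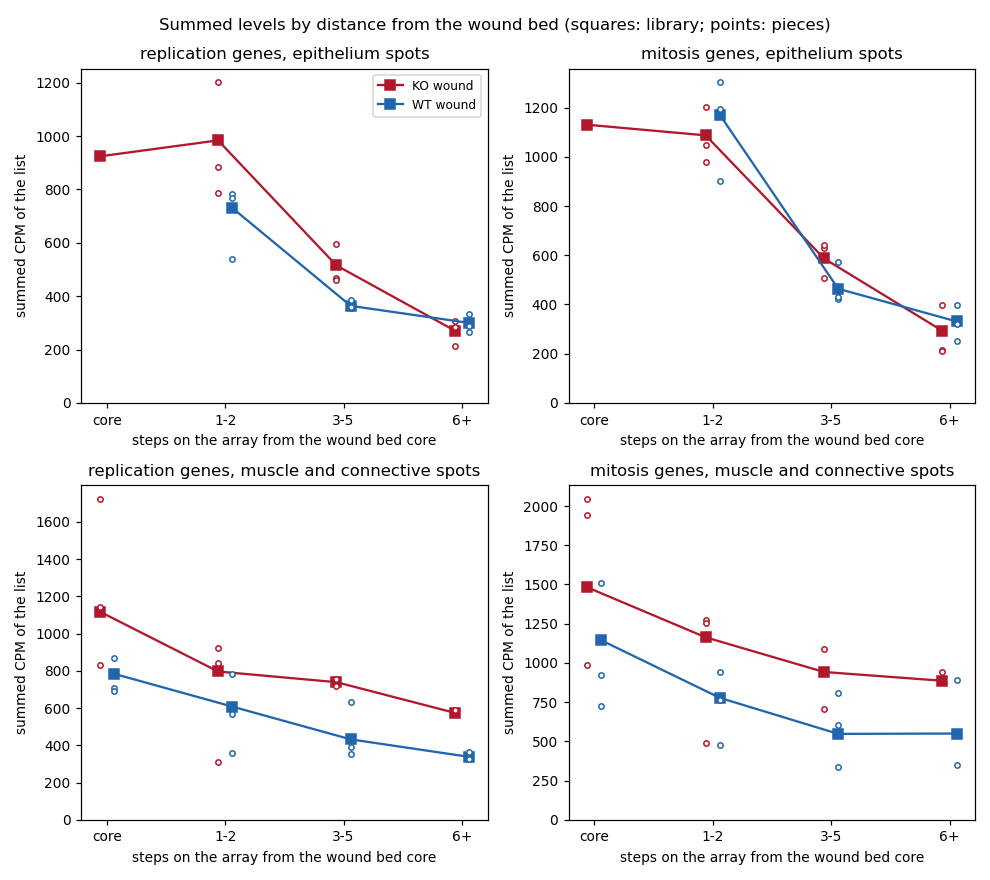
Summed replication (left) and mitosis (right) transcripts in CPM against array steps from the wound bed core, in epithelium spots (above) and muscle and connective tissue spots (below), with a square and line for the KO wound and for the WT wound library and open points for tissue pieces; regions under 5 spots are not drawn. In muscle and connective tissue spots the KO wound squares run from 1482 CPM of mitosis transcripts in the core to 886 CPM at 6 or more steps, each above the WT wound square of 1144 to 549.6 CPM; in epithelium the squares of both wounds are lowest at 6 or more steps.

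The epithelium near the wound also held more of both sets than epithelium far from it. At 1 to 2 steps, against 6 or more, epithelial replication transcripts were at 3.64 times in the KO wound, 2.44 times in the WT wound and 1.42 times in WT intact tissue, and mitosis transcripts at 3.72, 3.54 and 0.88 times. The crypt list was at 3.17, 1.90 and 1.44 times, so the epithelial rings also differed in crypt content.

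Between the wounds, the ratio at a given distance differed between layers. In epithelium, KO wound over WT wound was 1.35 [1.21 to 1.5] for replication and 0.93 [0.847 to 1.02] for mitosis at 1 to 2 steps, 1.42 and 1.27 at 3 to 5 steps and 0.90 [0.826 to 0.987] and 0.88 [0.812 to 0.962] at 6 or more steps. In muscle and connective tissue spots both sets were above 1 in every ring, replication at 1.43, 1.31, 1.71 and 1.70 [1.38 to 2.09] from the core outward and mitosis at 1.30, 1.5, 1.72 and 1.61 [1.36 to 1.90]. The outermost ring of these spots had 20 spots in the KO wound and 62 in the WT wound. Most of those KO wound spots came from piece 1, the piece on which the difference in muscle spots rested. The ratios between the wounds by ring were not computed with a piece left out. Over all spots together the ratios were 1.41, 1.35, 1.48 and 0.96 for replication and 1.29, 1.21, 1.37 and 0.92 for mitosis in the same order, so the values near 1 in the outermost ring pool layers that lay on opposite sides of 1.

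Other genes of the same processes were read from lists chosen with earlier results of these data in view. Of 34 further replication genes, 29 of the 33 tested were above 1 in the KO wound against the WT wound, with a median of 1.25 and 4 at or above 1.5, among them Pole, the catalytic subunit of a replicative polymerase, at 1.64. Of 40 further mitosis genes, 38 were above 1, with a median of 1.27 and 7 at or above 1.5, with Ckap2, a spindle protein, at 1.79. Over all genes 58.9% were above 1 and 3.34% at or above 1.5. Without KO wound piece 1, 30 of the 40 mitosis genes were above 1 (median 1.15), and without WT wound piece 3, 32 (median 1.13). Without KO wound piece 3, 24 of the 33 replication genes were above 1 (median 1.14). In the WT wound against WT intact tissue, 39 of the 40 further mitosis genes were below 1, with a median of 0.724, and 24 of 31 further replication genes, with a median of 0.855, against 39% of all genes. These counts too rested on WT intact piece 2, without which 19 of the 40 and 17 of the 31 were below 1, with medians of 1.03 and 0.974. Tk1, the thymidine kinase, was at 0.52, and Prim1, the primase subunit, and Rfc5, a clamp loader subunit, were at 0.62 and 0.59 with all WT wound pieces below all WT intact pieces. Rfc1 went the other way, at 1.39 [1.13 to 1.72] with overlapping pieces.

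Of the cell cycle control genes, 22 of 37 were above 1 in the WT wound against WT intact tissue, with a median of 1.08, a share close to the 61% of all genes above 1. Wee1, a kinase that holds back Cdk1, was at 2.55 [1.93 to 3.41], and Ccnd1, the cyclin that starts the cycle, at 1.55, both with all WT wound pieces above all WT intact pieces. Foxm1, a factor that drives mitosis genes, was at 0.68 [0.494 to 0.936], and the replication activator E2f1 at 1.37 [0.957 to 1.99]. Myc, which drives growth, was at 0.79 [0.629 to 1.005]. Mybl2, a partner of the MuvB complex at CHR letters, was at 0.78 [0.494 to 1.23] on 43 and 40 UMIs. The cyclin Ccnd2 was at 1.18 and the cyclin kinase inhibitor Cdkn1a at 1.27. Pieces overlapped for Foxm1, E2f1, Myc, Mybl2, Ccnd2 and Cdkn1a, and the intervals of E2f1, Myc and Mybl2 included 1. In the KO wound against the WT wound 23 of 37 were above 1, with a median of 1.11 and 1 at or above 1.5, beside 58.9% of all genes above 1. Wee1 was at 0.74 with all KO wound pieces below all WT wound pieces, and Myc at 1.41 and Cdk2, which drives entry into replication, at 1.46 with all KO wound pieces above. Foxm1 was at 1.47 [1.08 to 2.02] and Mybl2 at 1.47 [0.960 to 2.27]. Ccnd1 was at 1.17, E2f1 at 1.13 [0.825 to 1.54], Cdkn1a at 0.88 and Ccnd2 at 0.74. Pieces overlapped for Foxm1, Mybl2, Ccnd1, E2f1, Cdkn1a and Ccnd2.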

How the data were processed

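The deposited values are raw UMI counts per gene and spot, aligned to mm10 per the submitters' processing notes and made with Space Ranger 1.2.1 per the file headers. Whole counts were summed per library, piece (connected spots on the array, at least 20), layer and ring and divided by that region's total. No spot was removed. Of the spots, 14.0% in the KO wound, 10.6% in the WT wound and 8.17% in WT intact tissue lay near a layer boundary (best list share within 1.25 times of the next). With 1 library per group no test was run: edgeR served for scaling factors only (version 4.0.16), ratios have exact conditional binomial intervals, and the computation was tested on simulated data. A gene needed 50 UMIs over both libraries. The libraries shared 149 to 279 spot barcodes, which come from 1 array list. The members and lists were chosen with earlier results of these data known. All 40 members are accounted for. Of each other list up to 3 genes a direction and comparison could be named, with at least 100 UMIs over both libraries, ranked by the interval bound nearest to 1, plus E2f1, Foxm1, Mybl2, Myc, Ccnd1, Ccnd2 and Cdkn1a. The bounds of 1.5 and 0.667 were added after the data were seen. Alternatives were the scaling, the filter, the layer and core rules and leaving out each piece. Members without an entry in the promoter table were Gins2, Kif20a, Stmn1, Tpx2, Aurkb, Mcm4 and Ccna2.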

Additional observations from a re-analysis of the deposited data

How the results depend on the processing

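No paired analysis was possible because each group is 1 library and its pieces carry no replicate numbers. Under another scaling, filter, layer rule or core rule, no ratio with an interval clear of 1 was reversed. A reversal required the other side of 1, with the alternative interval, where computed, also clear of 1. Of 105 values computed so, 66 were called the same as the reported one. For a ratio this meant a value inside the reported counting interval, and for a count of genes a value within 1.5 times of the reported count. With TMM factors the WT wound over WT intact ratios were 0.839 for replication and 0.535 for mitosis, with 7 mitosis genes at or below 0.5 in place of 4. With equal weight per spot they were 0.927 and 0.592, and KO wound over WT wound was 1.39 and 1.36. The epithelium list as total gave 0.584 for mitosis, and equal weights over layers 0.590 and, for KO wound over WT wound, 1.27. In crypt-rich epithelium, WT wound over WT intact was 0.734 for replication and 0.445 for mitosis when epithelium was any spot whose list exceeded the muscle list (a rule with no connective layer), 0.696 and 0.398 with scores scaled within each library, and 0.723 and 0.460 with cut points from all libraries. Those cut points gave 1.29 and 1.01 for KO wound over WT wound and 5.83 for crypt-rich over surface-rich mitosis in the WT wound. Scores scaled within each library gave 1.26 for connective tissue mitosis, KO wound over WT wound, and 1.84 for muscle mitosis, where the rule without a connective layer gave 1.85. With cores from the top 5% and 20% of spots, core over outermost ring was 3.07 and 4.13 for replication in the KO wound, 2.79 and 2.15 in the WT wound, and 3.45 and 2.73 for mitosis in the WT wound. For mitosis in the KO wound the top 20% gave 5.28 and all top spots 4.70.

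Leaving out 1 piece moved more. WT wound over WT intact ranged from 0.787 to 1.03 for replication (median log2 -0.25 to 0.12) and from 0.481 to 0.823 for mitosis (median log2 -0.86 to 0.00), with 0 to 8 mitosis genes at or below 0.5. KO wound over WT wound ranged from 1.17 to 1.43 for replication (median log2 0.13 to 0.53) and from 1.10 to 1.35 for mitosis (0.19 to 0.50), with 1 to 8 and 1 to 9 genes at or above 1.5. In crypt-rich epithelium the ranges were 0.544 to 0.718 and 1.18 to 1.60 for replication and 0.330 to 0.567 and 0.997 to 1.27 for mitosis, WT wound over WT intact and then KO wound over WT wound. In connective tissue they were 0.729 to 1.05 and 1.28 to 1.63 for replication and 0.578 to 0.747 and 1.29 to 1.64 for mitosis. In muscle, KO wound over WT wound ranged from 1.12 to 1.96 for replication and from 1.03 to 2.21 for mitosis. Core over outermost ring ranged from 3.06 to 4.33 and 3.54 to 5.89 in the KO wound and from 2.17 to 2.80 and 1.97 to 4.44 in the WT wound, replication and then mitosis. In muscle and connective tissue spots alone it ranged from 1.64 to 2.58 and 1.49 to 3.73 in the KO wound and from 2.05 to 2.57 and 1.40 to 4.01 in the WT wound. In WT wound over WT intact, replication changed sides of 1 over whole libraries (1.03 without WT intact piece 2) and in connective tissue (1.05 without WT intact piece 1). Replication in muscle of the same libraries did so too, from 0.924 to 1.10 without WT wound piece 3 and 1.12 without WT intact piece 2. Crypt-rich mitosis in KO wound over WT wound also changed sides (0.997 without WT wound piece 1). Both medians in WT wound over WT intact did so without WT intact piece 2. Depth limits single genes: Cdc6 rests on 48, 58 and 26 UMIs and Bub1 on 50, 38 and 37 in the KO wound, WT wound and WT intact libraries.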

Other observations

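Plasma cell markers summed to 1749 CPM in piece 1 of WT intact tissue, against 125 and 121 CPM in its pieces 2 and 3, and that piece 1 was also the one whose mitosis sum lay within the range of the wound pieces. In the WT wound the plasma cell sums were 577, 1157 and 185 CPM, and piece 2 also had the highest mitosis sum. In the KO wound they were 610, 802 and 506 CPM, and piece 2 had the lowest mitosis sum. A link between the 2 was not tested. Enteric nerve markers were at 0.65 times in the KO wound against the WT wound and at 0.43 times in the WT wound against WT intact tissue.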
